A study of Mus musculus with 87 samples.

Results

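The regions described here are 481 broad SUZ12 peaks of mouse embryonic stem cells. They were chosen from 3 peak lists by their position alone: a SUZ12 peak of 4000 bp or more (end minus start) that overlapped at least 1 JARID2 peak and at least 1 PCL2 peak by 1 bp or more. They made up 6.17% of the 7796 SUZ12 peaks (95% Wilson interval 5.66 to 6.73%) and, with 3.15 Mb, 21.8% of the bases under SUZ12 peaks. Width and overlap chose the members, so the values of width and of JARID2 and PCL2 cover below are a description and carry no test.

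The series studied 87 samples of mouse embryonic stem cells whose subunits of Polycomb repressive complex 2 (PRC2) were intact, knocked out singly or together, or replaced by tagged forms. Of these, 63 were chromatin immunoprecipitation (ChIP) libraries and 24 were RNA libraries, 3 for each of 8 genotypes. The ChIP cells were grown on gelatin in 2i medium, and their strain label is 129B6F1. Among wild-type cells the labels list 2 SUZ12 libraries, 1 JARID2 library and 1 PCL2 library. The peak lists name no sample and are treated here as lists of the series as a whole. They give a chromosome, a start and an end on the mm10 build, and no score. The sources used here do not name the libraries or genotypes behind each list, the peak caller, its threshold or any pooling of libraries. Peaks therefore have no depth or replicate spread, and intervals cover counting error over peaks, genes or starts only. The ChIP signal of the knockout lines and the RNA counts were not used here, so nothing below compares genotypes.

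PRC2 is the enzyme complex that places methyl groups on lysine 27 of histone H3 (H3K27me3), a mark of genes kept silent. SUZ12 is a core subunit on which the complex assembles, and it is present in both main forms. The form known as PRC2.1 carries 1 of the PCL proteins, among them PCL2 (gene Mtf2), which bind DNA rich in unmethylated CG dinucleotides. The form known as PRC2.2 carries JARID2 and AEBP2, and JARID2 binds the ubiquitin mark that the sister complex PRC1 leaves on histone H2A. In embryonic stem cells PRC2 is known for occupying CpG islands at silent genes that later direct development.

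Sequences before the transcription starts of 4 genes in the widest members are shown because the members' starts differed widely in CG content. Each is the 250 bases just before an annotated start, 5′ to 3′ on the gene's strand, from RefSeq on GRCm38.p6, which shares its coordinates with mm10. CG dinucleotides are in capitals. Hoxa9, Six3, Uncx and Sox1 encode transcription factors of the body axis, forebrain and eye, somites and neural progenitors. In the Hoxa peak, which holds several starts, that of Hoxa9 is nearest the centre; the peak's other starts have 7 to 28 CG dinucleotides. Sp8, a zinc finger factor of limb and brain, was chosen after its value was seen: 1 of its 3 starts ties with that of the potassium channel gene Kcna7 for the lowest CG count of the members' starts, while the other starts of Sp8 have 32 and 6. Pou5f1, which encodes the pluripotency factor OCT4, is shown as a start outside all 3 kinds of peak.
Hoxa9 (chr6:52227371-52227620, minus strand): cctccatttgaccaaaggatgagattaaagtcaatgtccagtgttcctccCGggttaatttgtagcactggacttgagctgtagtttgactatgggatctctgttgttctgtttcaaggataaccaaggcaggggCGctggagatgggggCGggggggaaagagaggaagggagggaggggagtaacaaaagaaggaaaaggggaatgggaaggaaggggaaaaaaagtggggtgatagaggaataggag
Uncx (chr5:139543648-139543897, plus strand): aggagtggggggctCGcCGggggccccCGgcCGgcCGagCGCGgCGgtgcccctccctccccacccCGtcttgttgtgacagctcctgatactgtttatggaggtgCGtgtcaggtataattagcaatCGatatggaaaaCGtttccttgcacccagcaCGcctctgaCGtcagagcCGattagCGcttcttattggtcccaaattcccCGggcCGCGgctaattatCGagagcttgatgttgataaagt
Six3 (chr17:85620584-85620833, plus strand): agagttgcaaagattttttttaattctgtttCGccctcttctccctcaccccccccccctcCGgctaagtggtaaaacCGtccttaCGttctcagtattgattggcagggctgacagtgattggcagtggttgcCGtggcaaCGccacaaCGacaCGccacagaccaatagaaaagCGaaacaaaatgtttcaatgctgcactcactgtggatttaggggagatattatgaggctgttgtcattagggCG
Sox1 (chr8:12395269-12395518, plus strand): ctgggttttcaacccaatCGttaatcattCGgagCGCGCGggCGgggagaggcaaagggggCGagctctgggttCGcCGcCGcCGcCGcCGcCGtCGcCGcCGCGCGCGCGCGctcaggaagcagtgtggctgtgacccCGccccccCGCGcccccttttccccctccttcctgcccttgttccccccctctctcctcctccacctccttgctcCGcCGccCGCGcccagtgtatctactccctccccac
Sp8 (chr12:118846079-118846328, plus strand): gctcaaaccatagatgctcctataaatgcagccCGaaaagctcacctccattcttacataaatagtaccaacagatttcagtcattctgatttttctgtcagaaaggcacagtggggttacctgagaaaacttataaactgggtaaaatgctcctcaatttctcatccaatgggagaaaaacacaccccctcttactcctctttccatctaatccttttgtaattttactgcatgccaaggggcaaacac
Pou5f1 (chr17:35505782-35506031, plus strand): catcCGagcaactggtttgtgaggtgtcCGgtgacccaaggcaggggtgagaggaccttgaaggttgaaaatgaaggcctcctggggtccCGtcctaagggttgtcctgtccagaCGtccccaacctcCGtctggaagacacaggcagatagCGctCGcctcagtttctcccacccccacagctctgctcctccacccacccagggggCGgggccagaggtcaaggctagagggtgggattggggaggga
The windows hold 3 CG dinucleotides before Hoxa9, 20 before Uncx, 10 before Six3, 29 before Sox1 and 1 before Sp8. The window before Pou5f1, with no peak, holds 8. The counts over all the members' starts are given further on.

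The members ranged from 4002 to 87992 bp in width, with a median of 5266 bp and quartiles of 4446 and 7171 bp. The 3440 SUZ12 peaks that were also shared with both proteins but were under 4000 bp had a median of 1938 bp. The 3665 SUZ12 peaks with PCL2 and no JARID2 had a median of 1052 bp. Just inside it lay peaks of 4002 bp and 4004 bp without a protein-coding gene and a peak of 4005 bp at Nat8l, which encodes an enzyme that makes N-acetylaspartate. Just outside it lay peaks of 3991 bp at Kcng3, a potassium channel subunit, 3986 bp with no gene and 3985 bp at Npas1, a basic helix-loop-helix factor. Members and non-members at the limit thus differed by a few bases in width. Nearly every SUZ12 peak of 4000 bp or more was a member: 9 of 490 were not, 7 of them with PCL2 only and 2 with JARID2 only. The 2 with JARID2 only included a 4035 bp peak at Bmi1, which encodes a PRC1 subunit.

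The widest member at protein-coding genes lay in the Hoxa cluster, the anterior-to-posterior homeobox genes on chromosome 6. This peak, chr6:52199714-52255280, was 55567 bp wide and held Hoxa3, Hoxa5, Hoxa6, Hoxa7, Hoxa9, Hoxa10 and Hoxa11. JARID2 peaks covered 87.7% of it in 11 pieces, and PCL2 peaks covered 79.4% in 8 pieces. It is 1 of the members in which JARID2 covered more than PCL2. Leaving aside 2 peaks at predicted genes, described further on, single genes of transcription factors came next. Uncx lay in a peak of 20232 bp, chr5:139538937-139559168, of which JARID2 covered 76.7% and PCL2 all of it. Six3 lay in a peak of 19489 bp, chr17:85607225-85626713, which 1 JARID2 peak covered to 99.8% and 1 PCL2 peak covered whole. Sox1 lay in a peak of 17543 bp, chr8:12382347-12399889, with 72.2% JARID2 cover in 5 pieces and 93.3% PCL2 cover. The next peaks lay at Ebf3, a neuronal differentiation factor (16404 bp), at Hoxb3, Hoxb5, Hoxb6 and Hoxb7 together (15588 bp), and at Tfap2a, a neural crest factor (15102 bp). Skor1, a corepressor of the nervous system, lay in 14255 bp and Tbx2, a T-box repressor, in 14114 bp. All 9 peaks named here hold genes of transcriptional regulators of the embryo.

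Another 5 members lay at or near genes of small structural RNAs. The widest of all 481, chr8:123536848-123624839 with 87992 bp, holds annotated 5S ribosomal RNA genes and no protein-coding gene. JARID2 covered 90.9% of it in 35 separate peaks and PCL2 99.1% in 2. Peaks of 36048 bp and 29819 bp, chr6:47651102-47687149 and chr6:47736976-47766794, lie at the 4.5S RNA gene Rn4.5s and within 150 kb of it; the annotation places predicted genes named only by number there, and no structural RNA gene in the second of them. They had 13 and 14 JARID2 peaks and 15 and 13 PCL2 peaks in them. A peak of 4288 bp beside them, counted by the same distance, and a peak of 6076 bp at transfer RNA genes, chr1:171068976-171075051, complete the set. The distance was applied to the 4.5S RNA gene only, and at ribosomal and transfer RNA genes an overlap was required. A member of 4202 bp near the 5S peak, chr8:123512427-123516628, was therefore not counted. 5S, 4.5S and transfer RNA genes are known to occur in near-identical copies, where the place of a short read is uncertain, and the sources used here do not say how the authors treated such reads. The part of such reads in these 5 peaks was not tested. They hold 164 kb, or 5.21% of the members' bases, and the 476 other members had a median width of 5252 bp.

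Within the members, PCL2 peaks covered nearly the whole SUZ12 peak and JARID2 peaks somewhat less. The median member was covered to 96.2% by PCL2 (quartiles 91.3 and 99.7%) and to 84.4% by JARID2 (69.8 and 92.9%). PCL2 covered more of the peak than JARID2 in 410 of the 481, JARID2 more in 68, and both the same share in 3. All 481 were covered by PCL2 to 50% or more, and 436 were by JARID2. Counted over bases, 79.0% of the members' 3.15 Mb lay under both proteins, 14.8% under PCL2 without JARID2, 1.95% under JARID2 without PCL2 and 4.28% under neither. In 355 members a single PCL2 peak made the overlap, and in 280 a single JARID2 peak did.

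JARID2 cover differed more with width than PCL2 cover did. Narrower shared peaks had a median JARID2 cover of 63.4% against 84.4% in the members, and a median PCL2 cover of 94.3% against 96.2%. The median JARID2 cover was 66.4% in shared peaks under 1 kb, 60.3% at 1 to 2 kb, 63.1% at 2 to 3 kb and 71.4% at 3 to 4 kb. It was 76.3% in members of 4 to 5 kb, 82.4% in those of 5 to 6 kb, 89.3% at 6 to 8 kb, 91.1% at 8 to 10 kb and 91.6% at 10 kb or more. Median PCL2 cover was 99.8% in shared peaks under 1 kb, 93.3% at 2 to 3 kb and 97.7% at 10 kb or more. Across the 481 members, Spearman's rho of width with JARID2 cover was 0.35 and with PCL2 cover 0.14. These correlations are over peaks that share the same 3 lists and are given as a description.

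**Figure D1:**
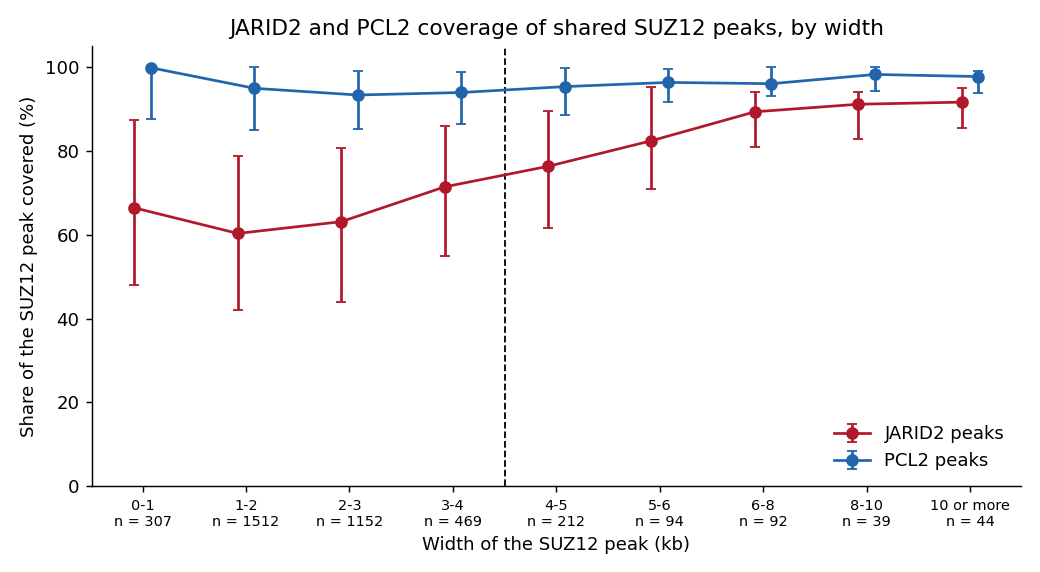
Share of each shared SUZ12 peak covered by JARID2 peaks (red) and PCL2 peaks (blue) in percent, against the width of the SUZ12 peak in kb; points are medians, bars reach from the lower to the upper quartile, and the dashed line marks the 4000 bp limit of the members. Median JARID2 cover is 66.4% under 1 kb, 60.3% at 1 to 2 kb and 91.6% at 10 kb or more, and PCL2 medians lie between 93.3 and 99.8%.

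JARID2 peaks mostly ended short of the members' edges. Of the 962 edges of the members, the outermost JARID2 peak stopped inside the SUZ12 peak at 78.2%. Over all 962 edges, with distances outside counted as negative, the median was 292 bp inside the edge. The outermost PCL2 peak stopped inside at 48.5% and reached outside at 51.4%, so PCL2 ended inside and outside about equally often. At edges of narrower shared peaks the JARID2 median, taken the same way over all edges, was 265 bp inside. The distance in base pairs was thus similar in both width classes and made up a smaller part of a wide peak.

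**Figure D2:**
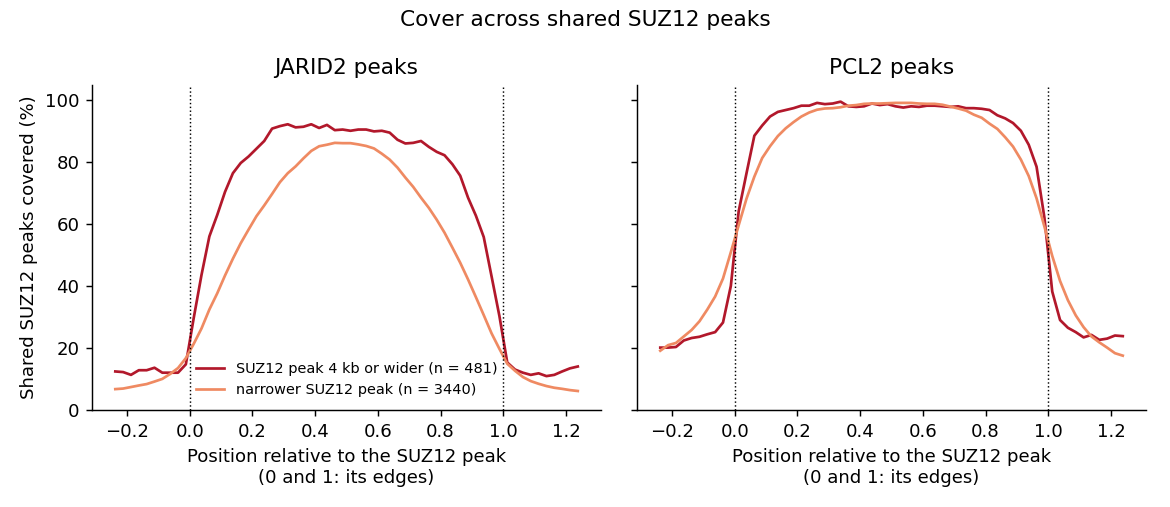
Share of shared SUZ12 peaks covered by a JARID2 peak (left) or a PCL2 peak (right), in percent, at positions scaled so that 0 and 1 are the edges of the SUZ12 peak; dark lines are the 481 members and light lines the 3440 narrower shared peaks. JARID2 cover of the members rises from the edges to a plateau in the middle, and PCL2 cover is near its full level soon inside the edges.

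Most members lay at a protein-coding gene, by a start or by an end. A protein-coding gene had its annotated start in the peak, or for genes without a start in the RefSeq promoter table an end within 1 kb of it, in 374 of the 481 members (77.8%, Wilson 73.8 to 81.2%). The same held for 59.6% of narrower shared peaks and for 47.1% of SUZ12 peaks with PCL2 and no JARID2. A wider peak can hold a start more often by its length alone, and the part of length in this difference was not tested. In all, 394 protein-coding genes lay at members, 270 assigned by a start and 124 by an end. They are 1.80% of the 21887 protein-coding genes of the annotation, and any SUZ12 peak was found at 19.1%. One gene lay in each of 353 members, 2 genes in each of 18, and 3 or more in 3.

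Of 262 listed genes of transcription factor families, 143 lay at a member, 54.6% against the 1.80% of all protein-coding genes. Among genes with any SUZ12 peak, 9.43% of all and 65.0% of these 220 listed genes were at a member. The lists were picked with the Polycomb literature and earlier results of these data known, so these counts describe the lists and are no independent evidence. The homeobox lists, 96 of 143 genes or 67.1%, stood higher than the signalling ligands, of which 13 of 49 or 26.5% lay at a member. The homeobox lists as counted here include the Pax list and the list of the Six3 family with its Eya partners. The 67.1% is therefore a share of these lists and not of homeobox genes alone. The listed factors and ligands together were 156 of the 394 genes, or 39.6%.

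The 4 Hox clusters, which pattern the body axis, differed in how far members covered them. Members took up 75.3% of the Hoxa cluster, 50.5% of Hoxd, 30.2% of Hoxb and 3.72% of Hoxc. In Hoxa 10 of 11 genes lay at a member. In Hoxb 8 of 10 did, and Hoxb1 and Hoxb13, the genes at the cluster's ends, lay in narrower shared peaks of 3079 and 3072 bp. In Hoxd 5 of 9 did, Hoxd9 to Hoxd13, with widths from 4110 bp at Hoxd13 to 10390 bp at Hoxd10. Hoxd1, Hoxd3 and Hoxd8 lay in narrower shared peaks and Hoxd4 in none, though a member of 4484 bp lay 2978 bp from Hoxd4. In Hoxc only Hoxc11 did, at 4307 bp. Hoxc was not free of SUZ12, though: 6 of its 9 genes lay at a SUZ12 peak, 5 of them in narrower shared peaks, and Hoxc6 and Hoxc8 shared 1 of 3958 bp, just under the limit. The cluster had 17 SUZ12 peaks, as many as Hoxb.

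Homeobox genes outside the Hox clusters lay at members in most of the lists. All 12 Dlx and Irx genes had a shared SUZ12 peak, and 11 were at a member. Irx5 at 13081 bp, Dlx1 at 12276 bp and Irx3 at 10627 bp had the widest, and Irx6 was the exception at 2373 bp. These genes pattern limb, branchial arches, heart and forebrain. Of 12 LIM homeobox genes, which specify neurons and organ primordia, 10 were at a member, led by Lhx1 with 12098 bp, Lhx2 with 11666 bp and Lhx5 with 11478 bp. The motor neuron and heart gene Isl1 (3198 bp) and the pituitary gene Lhx3 (2771 bp, no JARID2) were not. Of 14 Nkx genes 8 were at a member, among them the ventral neural tube and pancreas gene Nkx6-1 with 12408 bp, Nkx2-3, a gut and spleen factor, with 11329 bp, Nkx2-2 with 11316 bp and the heart gene Nkx2-5 with 9462 bp. Of 47 other homeobox genes 34 were, led after Uncx by Otx1 with 13074 bp, En1 with 10789 bp and Evx1 with 10279 bp. These 3 act in brain and axis patterning. Six3 and Six2, an eye and a kidney regulator, had peaks of 19489 and 10461 bp, while Six4, Eya1 and Eya3 had no SUZ12 peak. These were 2 of the 3 genes at a member among the 10 on the list of this family and its Eya partners.

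Other families were split. Of 9 Pax genes 6 were at a member, led by Pax9 (13448 bp), Pax6 (11415 bp), Pax7 (9211 bp) and Pax2 (7715 bp), which act in teeth and spine, eye, muscle stem cells and kidney. Pax4 and Pax8 had no SUZ12 peak. Of 25 forkhead genes 16 were, with Foxf1 at 12787 bp, Foxc1 at 12298 bp, Foxb1 at 9953 bp and Foxc2 at 8497 bp. Of 20 Sox genes 7 were, and after Sox1 came Sox14 with 10749 bp, Sox21 with 7146 bp and the cartilage and testis regulator Sox9 with 6823 bp. Sox2, which stem cells express, had no SUZ12 peak. Of 17 T-box genes 4 were: Tbx2, Tbx1 (11975 bp), Tbr1 (4536 bp) and T (4016 bp), the gene for brachyury. Tbx3 and Tbx4 were assigned no SUZ12 peak, though a member of 6292 bp lay 5202 bp from Tbx4. Gata2, Gata3 and Gata6, regulators of blood, trophoblast and endoderm, were at members of 13767, 10341 and 8952 bp. Gata4 and Gata5 lay in narrower shared peaks of 3431 and 3336 bp, and Gata1 in none. Of 37 basic helix-loop-helix genes 12 were, led by Hand2 (11110 bp, heart and limb), Atoh1 (9181 bp, hair cells and cerebellum), Olig2 (7946 bp, oligodendrocytes and motor neurons) and Neurog2 (6237 bp, neurons). Of the muscle regulators, Myod1 lay in a narrower shared peak of 2316 bp, and Myf5, Myf6 and Myog had no SUZ12 peak. Of 14 POU and Zic genes 5 were, with Zic1 at 8099 bp the widest.

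Of the 49 listed signalling ligands 41 lay at a SUZ12 peak and 26 of these at a narrower shared one. Of 19 Wnt genes 18 lay at a SUZ12 peak and 7 at a member, and none of those 7 exceeded 5088 bp, the width at Wnt3. Wnt1 had 4912 bp, Wnt5b 4483 bp and Wnt7b 4281 bp. Of 30 genes for BMP, GDF, FGF and hedgehog ligands 23 lay at a SUZ12 peak and 6 at a member. They were Fgf9 at 7657 bp, Gdf7 at 6391 bp, Ihh at 6037 bp, Gdf6 at 5229 bp, Fgf8 at 5017 bp and Shh at 4922 bp. Bmp2 at 3981 bp and Bmp4 at 3742 bp lay just under the limit. Nodal and Fgf4 had no SUZ12 peak. The median width of the SUZ12 peaks at listed ligands was 3269 bp, against 4978 bp at the listed factors.

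**Figure D3:**
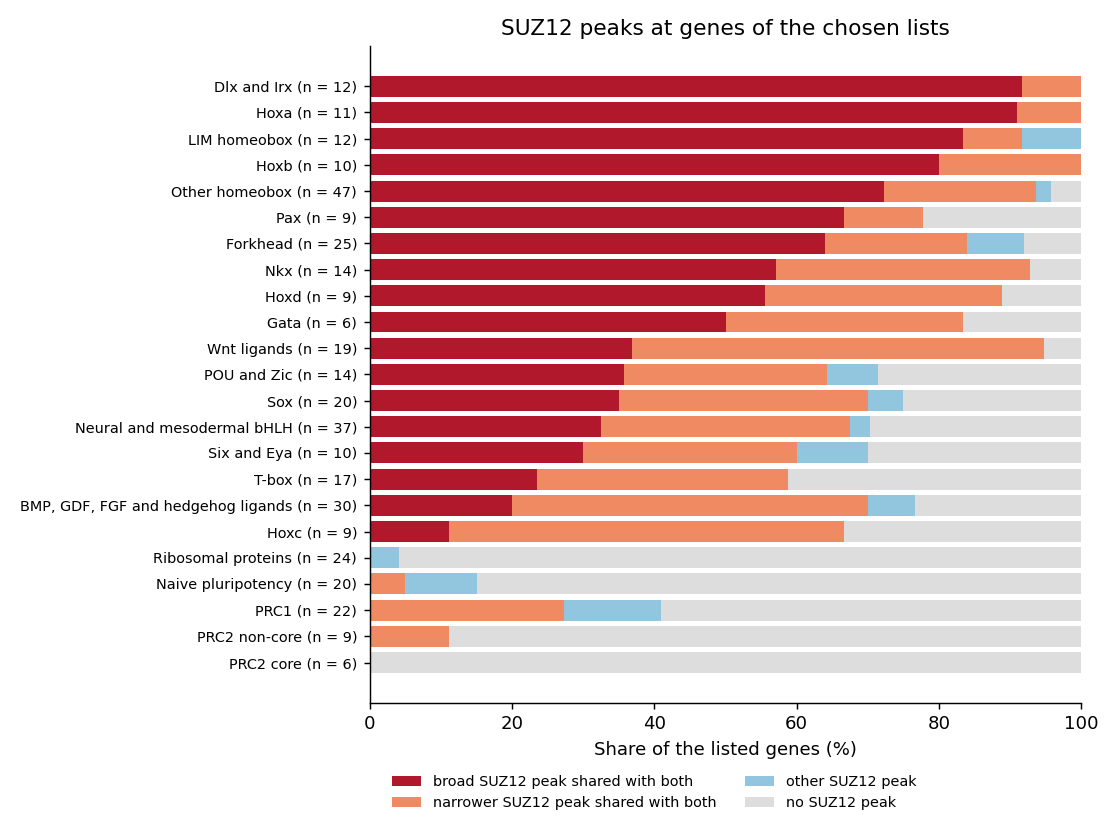
For each list of genes, the share in percent that lay at a broad SUZ12 peak shared with JARID2 and PCL2 (dark red), at a narrower shared SUZ12 peak (orange), at another SUZ12 peak (blue) or at none (grey); n is the number of listed genes in the annotation. Dlx and Irx, Hoxa and LIM homeobox genes have the fullest dark bars, Hoxc has 1 of 9, and the PRC1, PRC2, ribosomal and naive pluripotency lists have none.

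For the lists of genes that stem cells are known to express, the counts were near those of all protein-coding genes, of which 1.80% were at a member and 80.9% had no SUZ12 peak. Of 20 genes of naive pluripotency none was at a member and 17 had no SUZ12 peak, Pou5f1, Nanog, Zfp42 and Klf4 among them. Esrrb, a naive pluripotency factor, lay in a narrower shared peak of 3414 bp, and Gbx2 and Utf1 in SUZ12 peaks without JARID2. Of 24 ribosomal protein genes none was at a member and 23 had no SUZ12 peak. These counts do not set the genes apart from the rest. The marker lists of differentiated cells held members: Gata6 and Sox17 of 8 primitive endoderm markers, Sox1, Pax6 and Neurog2 of 8 neural, T, Hand1 and Pdgfra of 8 mesoderm, and Cdx2, Gata3 and Hand1 of 8 trophoblast markers. None of 8 fibroblast markers was at a member; Thy1 and Twist2 lay in narrower shared peaks of 2047 and 3189 bp, and the other 6 had no SUZ12 peak. None of 8 naive stem cell markers was at a member either. Peak positions hold no measure of expression, so the labelled cell type could not be checked with them.

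The genes of the Polycomb complexes themselves are given for reference, since a count of 0 in lists this short is near the 1.80% of all genes. None of the 6 genes of the PRC2 core (Suz12, Eed, Ezh1, Ezh2, Rbbp4, Rbbp7) had a SUZ12 peak. Of the genes knocked out in the series, Phf1, Mtf2, Jarid2, Aebp2 and Epop had none either, and Phf19, which encodes PCL3, lay in a narrower shared peak of 2353 bp. Of 22 PRC1 genes 9 lay at a SUZ12 peak, and none at a member. Cbx2 and Cbx8, chromodomain readers of H3K27me3, lay in narrower shared peaks of 2424 and 1243 bp. A member of 8367 bp without an assigned gene, chr11:119041117-119049483, lay 204 bp from an annotated start of Cbx8.

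Genes in members had a shorter median length than genes in the other classes, with a wide spread, and members took up much of them. The 270 genes assigned by their start had a median length of 10042 bp (quartiles 4129 and 51775 bp). Genes at narrower shared peaks had 44008 bp (n = 1489), genes at SUZ12 peaks with PCL2 and no JARID2 had 32817 bp (n = 1278), and genes with no SUZ12 peak 14923 bp (quartiles 4780 and 36145 bp, n = 14420). The upper quartile of the members' genes was thus above that of genes without a SUZ12 peak. The median member covered 42.7% of its gene, against 3.06% for narrower shared peaks, and 75 genes (27.8%) lay in a member from end to end, against 2.55%. Both a wider peak and a shorter gene raise this share, and their parts were not separated.

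Members reached further than narrower shared peaks on both sides of the start. Width chose both classes, so a larger total extent is built into this comparison and carries no test. Among 221 members with exactly 1 annotated start, the peak extended a median of 2259 bp upstream and 3463 bp downstream. It was longer downstream in 151 of them, 68.3%. In 1330 narrower shared peaks with 1 start the medians were 671 bp upstream and 1292 bp downstream, and 81.4% were longer downstream. Most peaks of both classes thus leaned into the gene, and the members did so in a smaller share.

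**Figure D4:**
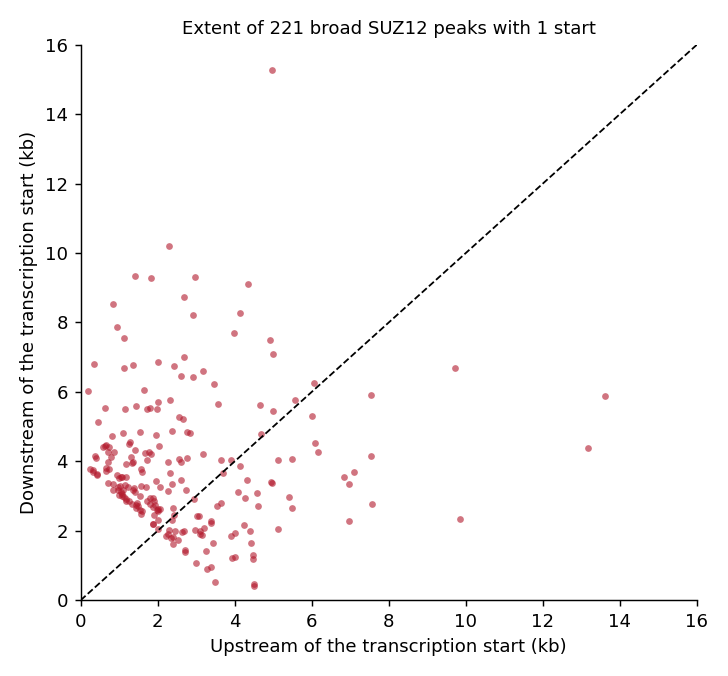
Each point is 1 of the 221 broad SUZ12 peaks with exactly 1 annotated start: the extent of the peak in kb upstream of the start (horizontal) and downstream of it (vertical), with the dashed line where both are equal. Most points, 151, lie above the line; the lower left corner is empty because members are 4 kb or wider.

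Members often had another SUZ12 peak, of any class, close by. The median gap from a member to the nearest other SUZ12 peak was 2897 bp, against 39878 bp for narrower shared peaks, and 34.9% of members had another SUZ12 peak within 1 kb, against 16.2%. Around members there were 232 gaps of under 2 kb to the next SUZ12 peak, of which PCL2 peaks crossed 62 and JARID2 peaks 39. How far a broad domain was cut into pieces by the peak caller was not tested. When SUZ12 peaks up to 1 kb apart were joined first, 558 peaks met the rule. As a share of each chromosome's SUZ12 peaks, members were 9.45% on chromosome 13, 9.09% on chromosome 6 and 6.46% on chromosome 8, against 6.17% in all, and 2 of 96 on X.

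The 107 members without an assigned protein-coding gene mostly lay in or near other annotated genes. In 29 of them another annotated gene was found, and of the 78 with none, 50 overlapped the body of a protein-coding gene. Distance was taken to the nearest annotated start of a protein-coding gene, or to an end for genes without a start in the promoter table. Its median over the 107 was 11726 bp, and 28 lay within 5 kb. Several flank genes of the same kind as those in members. Chosen after their values were seen, examples are a peak of 9410 bp at 2909 bp from Cyp26b1, which degrades retinoic acid, a peak of 9271 bp at 3304 bp from Lmx1b, and a peak of 7721 bp at 6919 bp from Nr4a2, a dopamine neuron factor. By the same assignment, by a start or an end within 1 kb, members had 182 pairings of a peak with a long non-coding RNA gene. The share over all such genes was not computed, so this count does not set the members apart.

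Of 1072 miRNA genes in the RefSeq sequence table, 14 (1.31%) overlapped 9 members by 1 bp or more, and 5.22% overlapped any SUZ12 peak. They give 27 mature arms, where a form made from more than 1 of these genes is counted at each. The gene annotation also places Mir124a-3 at a member of 5250 bp, which these counts do not include. Shown are 6 mature forms that come from Hox clusters or share a seed with a neighbour or paralog. The 6 were chosen after the list was seen, and the opposite arms and the antisense miR-9b are left out. The seed, bases 2 to 8, is in capitals.
mmu-miR-10a-5p: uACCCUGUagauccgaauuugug
mmu-miR-10b-5p: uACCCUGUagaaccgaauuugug
mmu-miR-196b-5p: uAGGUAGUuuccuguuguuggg
mmu-miR-9-5p: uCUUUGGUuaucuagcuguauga
mmu-miR-132-3p: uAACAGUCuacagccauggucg
mmu-miR-212-3p: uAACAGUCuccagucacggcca
miR-10a and miR-10b share the seed ACCCUGU and come from the Hoxb and Hoxd clusters. The gene of miR-10a lies in the member of 8356 bp that holds Hoxb4, and that of miR-10b in a member of 4484 bp. miR-196b comes from the Hoxa peak of 55567 bp. miR-9-5p, a miRNA of neural progenitors with the seed CUUUGGU, is made from several genes, of which Mir9-1 and Mir9-3 lay in members of 4063 and 7131 bp on chromosomes 3 and 7. miR-132-3p and miR-212-3p, which share the seed AACAGUC, lie side by side at the edge of 1 member of 4023 bp. That member ends within the mature miR-132-3p.

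The sequence before the starts was rich in CG, as at other peaks. The 315 annotated starts in members, of 270 genes, had a median of 17 CG dinucleotides in the 250 bases before the start (quartiles 11 and 22). Starts in narrower shared peaks had a median of 18, starts in SUZ12 peaks with PCL2 and no JARID2 had 18, and starts in PCL2 peaks without SUZ12 had 17. Starts in no peak of the 3 proteins had 6, and all 21263 starts 10. Under 5 CG dinucleotides were found in 5.08% of the members' starts and in 44.7% of starts in no peak. Observed over expected CG was 0.73 in members and 0.37 in no peak. CG content thus differed between starts in peaks and starts outside them and by 1 in the median between broad and narrower shared peaks. Starts of 1 gene can overlap in sequence, so they are not independent.

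**Figure D5:**
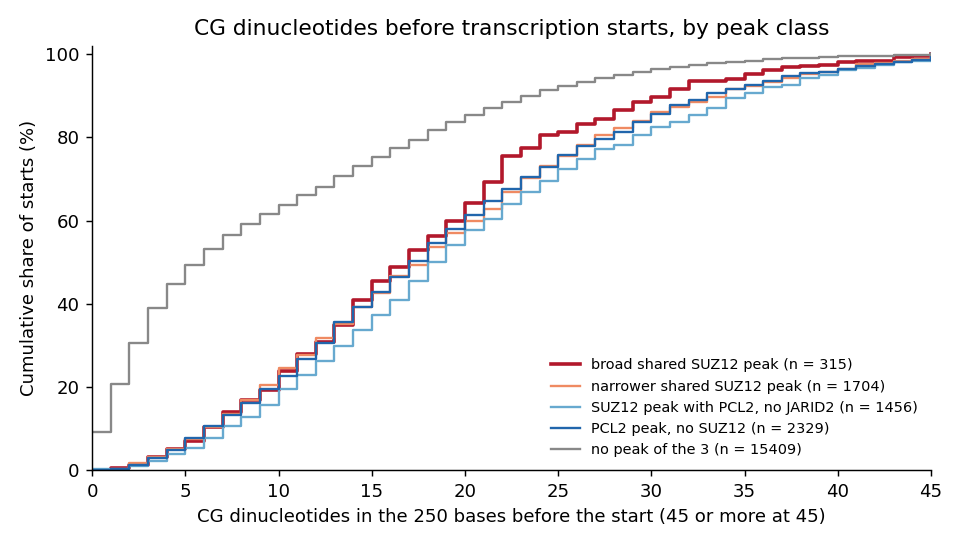
Cumulative share of annotated starts, in percent, against the number of CG dinucleotides in the 250 bases before the start, for starts in broad members (dark red), in other classes of peak, and in no peak (grey). The 4 classes of starts in peaks run close together, with medians of 17 to 18, and starts in no peak lie to the left with a median of 6.

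A search of the same 250 bases on both strands for 3 short words gave a higher share for 1 of them, GAGAGA, in members than in every other class compared. The word GAGAGA (or TCTCTC) was found before 30.5% of the members' starts (Wilson 25.7 to 35.8%), 19.1% of those in narrower shared peaks (17.3 to 21.0%), 17.2% of those in SUZ12 peaks with PCL2 and no JARID2, 15.8% of those in PCL2 peaks without SUZ12 and 18.9% of all starts. These intervals count starts as independent, and starts of 1 gene can overlap in sequence, so their separation is no test. By width the share was 19.4% under 2 kb, 18.8% at 2 to 4 kb, 31.5% at 4 to 6 kb, 29.1% at 6 to 10 kb and 29.4% at 10 kb or more. The word CGCG, its own reverse complement, was found before 73.0% of members' starts, 71.9% of starts in narrower shared peaks and 33.2% of starts in no peak. The word TATAAA was found before 9.84% of members' starts, 6.22% in narrower shared peaks and 11.6% of all. In the windows printed above, CGCG occurs before Uncx and Sox1 and not before Hoxa9, Six3, Sp8 or Pou5f1. These are matches of letters, not sites of a factor. The plan named CG and GC content only, so the search for these words was an addition to it. Other words were not searched, and no test was run.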

How the data were processed

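The 3 peak lists, for SUZ12 (7796 peaks), JARID2 (4991) and PCL2 (20003), were used as the authors deposited them; per the file headers and contents their values are positions in base pairs. The submitters' processing notes name Trimmomatic, Bowtie2 and mm10 for ChIP, without versions. The deposited RNA counts, for which those notes name STAR and HTSeq, were not used: nothing at hand pairs their Ensembl identifiers with symbols or positions. The planned RNA comparisons, and the part of the naming rule that rested on them, were therefore dropped.

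Overlaps were computed in Python 3.11.15 and tested on simulated intervals. Cover is the share of a SUZ12 peak under merged peaks. Genes and starts came from RefSeq tables (GRCm38.p6): 17492 of 21887 protein-coding genes had a start, and the others were assigned by an end within 1 kb. No gene at the 14 members on chromosome 18 had a start there. The gene lengths, extents around starts and sequence counts of members therefore leave that chromosome out. Wilson intervals (95%) used scipy 1.17.1. Genes named are those in the widest members, up to 4 per list with the widest peaks, contrasting list genes outside the members, peaks beside the limit and the targeted genes. Members and lists were chosen with earlier results of these data known.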

Additional observations from a re-analysis of the deposited data

How the results depend on the processing

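The alternatives were run for 8 quantities: the number of members, both covers, the genes, the shares of listed factors and ligands, the CG count and GAGAGA. Gene lengths, edges, extents around starts, gaps, Hox shares, miRNAs and single lists were run under none. The number of members follows the width limit. With 3000 bp the rule took 950 peaks and 738 genes, and with 5000 bp 269 peaks and 232 genes. Median JARID2 cover was 78.6% with 3000 bp, 88.8% with 5000 bp, 86.7% when each protein had to cover 50% of the peak and 78.6% when peaks up to 1 kb apart were joined. Median PCL2 cover was 95.0% with 3000 bp and 93.8% after joining. The share of listed transcription factors at a member was 66.0% with 3000 bp, 41.6% with 5000 bp and 62.6% after joining, and the share of ligands 49.0% and 12.2% with 3000 and 5000 bp. A changed width limit moves the number of members by its construction. Why the covers and shares moved with it or with joining was not tested. Median CG counts (16 to 18) and the share of starts with GAGAGA (26.9 to 30.9%) stayed within their intervals under the width, cover, joining and repeat settings. Without the 5 members at structural RNA genes, 476 members and 388 genes were left and none of the 8 left its interval or changed by over 1.5 times. Assigning every gene by either end within 1 kb gave 416 genes. Joining, leaving out those 5 members, and the 3000 bp and 50% settings outside the member count were added after seeing the data. The planned RNA alternatives (other normalizations and filters, leaving out a library, the replicate block) were not run. No paired analysis was possible because no result comes from a test and the peak lists carry no replicates.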
